A study of Mus musculus with 12 samples.

Results

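Btnl1, Btnl2, Btnl4 and Btnl6 are the protein-coding butyrophilin-like genes of the mouse major histocompatibility complex, and their RNA was followed across the mucosa of ileum and colon. The 4 genes were taken as the rows of the gene table whose Ensembl identifier belongs to these symbols in GENCODE M21, and all 4 were found among 53715 genes and passed the filter on low counts. RNA had been sequenced from mucosa of the ileum or the colon of 8-week-old male C57BL/6J mice, with 3 libraries in each of 4 groups. Control mice carried the genotype Slc39a8-fl/fl, in which the manganese transporter gene Slc39a8 is flanked by loxP sites but intact. Slc39a8-IEC KO mice carried Slc39a8-fl/fl:Villin-Cre, so the same floxed alleles were present in both groups and the Cre recombinase came from a transgene under the villin promoter, whose activity marks the intestinal epithelial cells (IEC). The study's methods describe its control animals in general as of more than one genotype without the deletion, whereas the labels of these libraries name the floxed genotype. The mucosa also holds cells other than epithelium, and whether an ileal and a colonic library came from 1 animal is not stated in the labels.

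Butyrophilin-like proteins are membrane proteins with immunoglobulin domains, related to the B7 family of T cell ligands. In the mouse small intestine Btnl1 and Btnl6 are made by enterocytes and act as a pair on the epithelial surface, where they select and maintain the intraepithelial gamma delta T cells that use the V gamma 7 receptor chain. Btnl4 is a close relative of Btnl6 that can also pair with Btnl1, and Btnl2 is known as an inhibitor of T cell activation. HNF4 and CDX proteins are transcription factors of the enterocyte.

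The 4 genes lay within 162531 bases of chromosome 17 in GRCm38 (mm10). Btnl2 (chr17:34354822-34369495) and Btnl1 (chr17:34377132-34386028) were annotated side by side on the plus strand, and Btnl4 (chr17:34466562-34477318) and Btnl6 (chr17:34507804-34517352) on the minus strand. The pseudogene Btnl5-ps (chr17:34488070-34497429) was between Btnl4 and Btnl6, and the pseudogene Btnl7-ps (chr17:34532877-34547651) was beyond Btnl6. No annotated gene overlapped any of the 4. The cluster was flanked by class II genes of the major histocompatibility complex on one side and by Notch4 on the other.

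Sequence similarity bears on how reads were divided between these genes, so it is shown for the closest pair. The annotated transcripts of Btnl4 and Btnl6 were identical at 90.1% of aligned bases, whereas the other pairs among the 4 genes were identical at 62.9% to 64.2%. The first 120 coding bases of both genes, from GRCm38 and GENCODE M21, are printed with capitals at the 8 positions where they differ.
Btnl4: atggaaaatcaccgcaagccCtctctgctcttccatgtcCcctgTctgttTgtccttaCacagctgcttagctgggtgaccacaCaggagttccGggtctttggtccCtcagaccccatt
Btnl6: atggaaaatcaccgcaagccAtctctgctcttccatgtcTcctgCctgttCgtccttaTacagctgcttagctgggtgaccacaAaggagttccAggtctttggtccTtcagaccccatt
Of all windows of 75 bases in the exons of Btnl4, 7.47% also occurred in another gene, mostly in Btnl5-ps, and the share was 2.39% for Btnl6 and 0% for both Btnl1 and Btnl2. Counts of Btnl4 and Btnl6 are therefore uncertain to the extent that reads from shared windows were split with the pseudogenes, while those of Btnl1 and Btnl2 had no such window. The window is shorter than the paired reads of the study, so these shares may overstate the reads that could not be assigned.

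The sequence before the transcription start is shown for Btnl1 and Btnl2, which are neighbours on the same strand and differed most in the size of their tissue difference among the 3 genes that were lower in colon. Both are the 250 bases upstream of the RefSeq start in GRCm38.p6, plus strand, at chr17:34376882-34377131 for Btnl1 and chr17:34354572-34354821 for Btnl2. Capitals mark an exact match to the HNF4-type motif CAAAGTCCA.
Btnl1: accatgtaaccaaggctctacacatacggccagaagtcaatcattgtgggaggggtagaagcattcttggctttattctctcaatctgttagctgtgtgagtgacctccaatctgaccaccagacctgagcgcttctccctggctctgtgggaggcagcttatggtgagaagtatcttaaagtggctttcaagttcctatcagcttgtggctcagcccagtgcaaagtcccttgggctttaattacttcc
Btnl2: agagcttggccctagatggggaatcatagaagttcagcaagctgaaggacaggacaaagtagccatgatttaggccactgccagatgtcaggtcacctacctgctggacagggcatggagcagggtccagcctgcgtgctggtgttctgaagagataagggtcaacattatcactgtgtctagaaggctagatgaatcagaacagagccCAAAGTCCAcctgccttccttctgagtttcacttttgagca
The match in Btnl2 lay 41 to 33 bases before the start, and these letters were found on either strand in 0.384% of 32851 RefSeq promoter windows of the same length. The window of Btnl1 did not hold these exact letters. It did hold caaagtccc near its end, which differs from the motif in the last letter only. Near matches were not searched or counted, so the windows are not shown to differ in HNF4-type sites. Neither window held the CDX2-type motif TTTATNG, which was found on either strand in 9.81% of all windows. The annotated coding transcripts of Btnl4 and Btnl6 begin at the start codon, and the RefSeq and GENCODE starts of Btnl4 differ. Their transcription starts are therefore uncertain and their windows are not described. A match of letters is a description of the window and shows no binding.

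The libraries held between 16749138 and 27903083 expected counts. Levels are given as counts per 1000000 (CPM) of the library size after scaling by the trimmed mean of M values (TMM). Slc39a8, the targeted gene, was at 8.38, 5.22 and 6.58 CPM in the ileal control libraries and at 4.35, 2.62 and 2.79 CPM in the ileal Slc39a8-IEC KO libraries, and at 20 to 20.8 CPM in colonic control and 7.34 to 11.5 CPM in colonic Slc39a8-IEC KO libraries, so that every Slc39a8-IEC KO library was below every control library of its tissue. Of the ileal libraries, 3 stood apart. The smooth muscle list (6 genes, none at 0 in any library) summed to 34.1 CPM in ileum control replicate 3 and 20.1 CPM in ileum Slc39a8-IEC KO replicate 1, against 1813 to 3951 CPM in the other 10 libraries. The list of gamma delta and natural intraepithelial T cell genes summed to 66.1 and 93.0 CPM in the same libraries, against 281 to 400.2 CPM in the other 4 ileal libraries. Ileum Slc39a8-IEC KO replicate 2 held 3137 CPM of the colonocyte list (6 genes, all detected there), against 236 to 648 CPM in the other 5 ileal libraries and 15861 to 28335 CPM in colon. Epithelial markers were high in all libraries, with a sum of 21542 to 26615 CPM over 10 genes in ileum and 10677 to 12056 CPM in colon. The tissue and ileal genotype values of the 4 genes, and the counts over gene lists, are given also without the libraries low in muscle transcripts, and values without the library rich in colonocyte transcripts where a call changed.

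By the union of annotated exons, Btnl6 was the most abundant of the 4 genes per unit of length in every group. On that length Btnl2 fell from close to the level of Btnl4 in ileum to far below it in colon. The union exceeded the longest coding transcript for Btnl1 (3226 against 2113 bases) and Btnl4 (2381 against 1761), but hardly for Btnl2 (2587 against 2566). The closeness of Btnl2 and Btnl4 in ileum, and of Btnl4 and Btnl1 in colon, therefore depends on the length chosen, and transcript lengths were not tried. Divided by exon length, the level of Btnl6 in control ileum was 200.3 ± 30.2 CPM per kb (SD, n = 3). Btnl1 was at 46.3 ± 3.62, Btnl4 at 28.8 ± 4.17 and Btnl2 at 25.4 ± 5.96 CPM per kb in the same libraries. Btnl4 and Btnl2, neighbours in this order, overlapped, and their ratio within ileal libraries of both genotypes ran from 0.742 to 1.07. In control colon Btnl6 was at 109 ± 13.6, Btnl4 at 31.9 ± 2.96, Btnl1 at 30.5 ± 7.48 and Btnl2 at 5.83 ± 1.5 CPM per kb (SD, n = 3). Btnl4 and Btnl1 overlapped there, with a ratio of Btnl1 to Btnl4 within colonic libraries of 0.768 to 1.35. Among the 16558 genes tested, mean CPM placed Btnl6 at percentile 96.5, Btnl1 at 91.9, Btnl4 at 84.9 and Btnl2 at 75.7.

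The first comparison asked how the 4 genes differ between ileum and colon. Btnl2, Btnl6 and Btnl1 were lower in colon than in ileum in both genotypes, and Btnl4 did not pass the test in either. At an adjusted p below 0.1, 3 of the 4 genes passed as lower in colon of control mice, where 19.6% of all tested genes were lower in colon (35.9% changed in either direction), and the same 3 passed in Slc39a8-IEC KO mice, where 20% were lower (37.1% in either direction). These directions hold under scaling by TMM, and those of Btnl1 and Btnl6 turned when libraries were scaled to a list of epithelial genes, as described after the values. The test was edgeR's quasi-likelihood test with Benjamini-Hochberg adjustment over all tested genes.

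**Figure D1:**
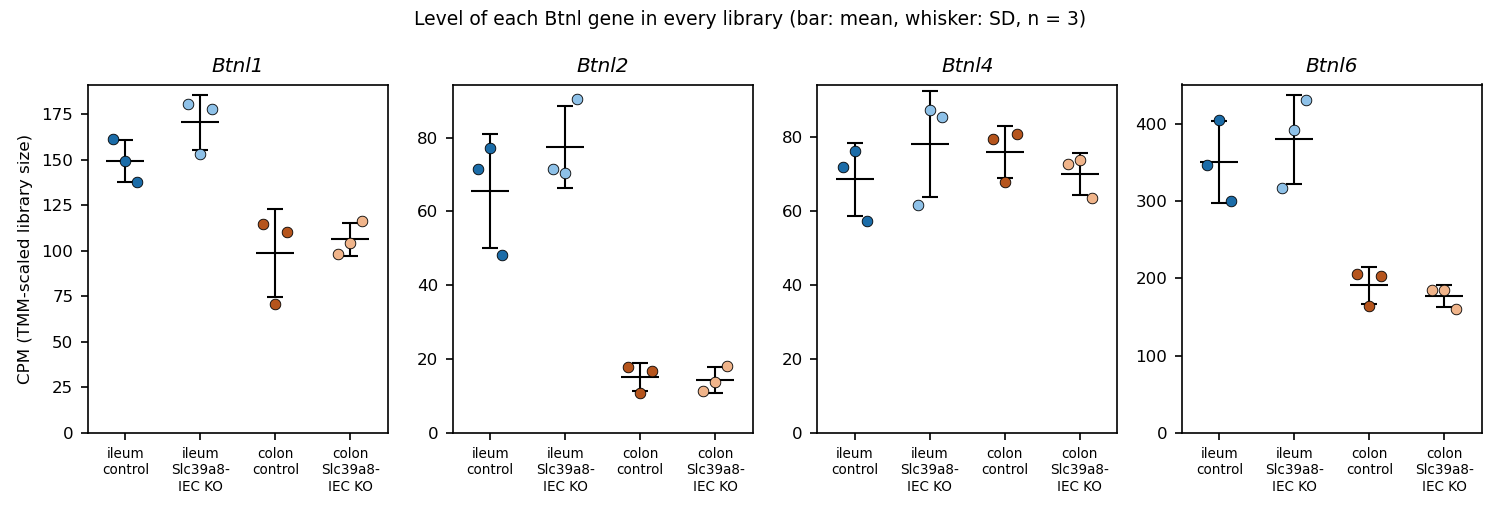
Level of each gene (vertical axis, CPM) in the 12 libraries, with points for libraries, bars for group means and whiskers for the SD of 3 libraries. On this TMM scale colonic points of Btnl1, Btnl2 and Btnl6 lie below all ileal points (relative to epithelial transcripts those of Btnl1 and Btnl6 do not), while those of Btnl4 overlap the ileal points at 57.4 to 87.4 CPM.

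Btnl2, the T cell inhibitor next to the class II genes, showed the widest separation. In control mice it was at 71.5, 77.2 and 48.1 CPM in ileum and 17.8, 10.6 and 16.8 CPM in colon. The Slc39a8-IEC KO libraries held 71.5, 70.5 and 90.4 CPM in ileum and 11.2, 13.8 and 18 CPM in colon. The lowest ileal library, control replicate 3, which was also low in smooth muscle transcripts, was still above every colonic library. Btnl2 was 4.35-fold higher in ileum of control mice (log2 fold change, colon over ileum, -2.12, SE 0.25, adjusted p 8.78e-05, edgeR) and 5.40-fold higher in ileum of Slc39a8-IEC KO mice (-2.43, SE 0.25, adjusted p 3.44e-05, edgeR). Without both libraries low in muscle transcripts the log2 values were -2.31 and -2.48, and without Slc39a8-IEC KO replicate 2 of the ileum the second was -2.50. Under every scaling tried Btnl2 remained lower in colon.

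Btnl6, the partner of Btnl1, was at 347, 405 and 299.8 CPM in ileum and 206, 164 and 203 CPM in colon of control mice. The Slc39a8-IEC KO libraries held 318, 392 and 431 CPM in ileum and 185, 185 and 161 CPM in colon. The groups did not overlap, and the ileal libraries low in muscle transcripts held the lowest ileal value in each genotype. The log2 fold change was -0.88 (SE 0.16, adjusted p 0.00203, edgeR) in control mice, a 1.84-fold higher level in ileum. In Slc39a8-IEC KO mice it was -1.10 (SE 0.16, adjusted p 4.43e-04, edgeR), a 2.15-fold higher level in ileum. Without the libraries low in muscle transcripts these values were -0.99 and -1.21.

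Btnl1, which acts together with Btnl6, differed less. It was at 161, 149 and 138 CPM in ileum and 115, 70.8 and 110.2 CPM in colon of control mice. In Slc39a8-IEC KO mice the ileal libraries held 181, 153 and 178 CPM and the colonic libraries 98.3, 104 and 116 CPM. Every ileal library was above every colonic one, although colon control replicate 2 lay well below the other colonic libraries. The log2 fold change was -0.60 (SE 0.17, adjusted p 0.0223, edgeR) in control mice and -0.68 (SE 0.17, adjusted p 0.0119, edgeR) in Slc39a8-IEC KO mice. Without the libraries low in muscle transcripts these values were -0.67 and -0.63.

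Btnl4, the close relative of Btnl6, was at 72.0, 76.3 and 57.4 CPM in ileum and 79.4, 68.0 and 80.8 CPM in colon of control mice. The Slc39a8-IEC KO libraries held 61.6, 87.4 and 85.4 CPM in ileum and 72.9, 73.9 and 63.6 CPM in colon. The ranges overlapped in both genotypes. Its log2 fold change was 0.15 (95% interval -0.19 to 0.50, adjusted p 0.509, edgeR) in control mice and -0.16 (95% interval -0.50 to 0.19, adjusted p 0.486, edgeR) in Slc39a8-IEC KO mice. A difference of the size seen for Btnl6 was outside both intervals. Without the libraries low in muscle transcripts Btnl4 passed as lower in colon of Slc39a8-IEC KO mice, with a log2 fold change of -0.29 and an adjusted p of 0.0946 in edgeR. With library sizes alone, without TMM, Btnl4 passed as higher in colon of control mice (0.38, adjusted p 0.0400, edgeR), and Btnl1 did not pass there (-0.38, adjusted p 0.106, edgeR).

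Without a model across genes, the groups of Btnl1, Btnl2 and Btnl6 did not overlap between tissues in either genotype, which was the case for 17% of all tested genes in the direction of lower in colon. The two-sided exact permutation test on log2(CPM + 0.5), with tissue labels exchanged within genotype, gave a p of 0.005 for each of these 3 genes, the smallest that 400 arrangements allow. It gave a p of 0.95 for Btnl4. Within 1 genotype the smallest p the design allows is 0.1, which Btnl1, Btnl2 and Btnl6 reached in both.

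**Figure D2:**
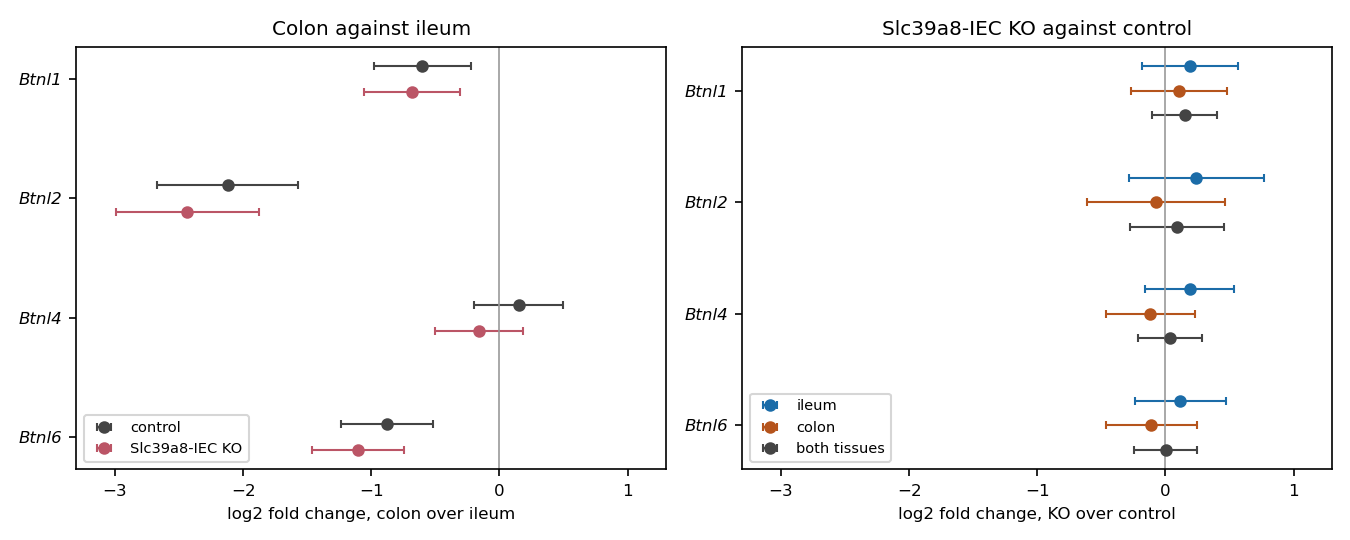
Log2 fold change (horizontal axis) of each gene with its 95% interval from edgeR, for colon over ileum on the left and Slc39a8-IEC KO over control on the right. On the left the intervals of Btnl1, Btnl2 and Btnl6 lie below 0 with TMM scaling (those of Btnl1 and Btnl6 do not when scaled to epithelial transcripts), and on the right every interval spans 0.

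The size of the tissue difference depended on what the libraries were scaled to, and epithelial transcripts themselves took a smaller share of the colonic libraries. Of 10 epithelial genes, among them Epcam and Vil1, 9 were lower in colon of control mice and 9 in Slc39a8-IEC KO mice, with medians of -1.03 and -0.96 on the log2 scale against a median of 0.02 and 0.01 over all tested genes (8 and 9 without the libraries low in muscle transcripts). The decrease of Btnl2 exceeded that of all 10 epithelial genes in both genotypes, whereas 8 of the 10 had a lower log2 fold change than Btnl1 in control mice and 9 in Slc39a8-IEC KO mice. For Btnl6 these counts were 6 and 4 of the 10, so its decrease was near the middle of the epithelial genes. In bulk mucosa, fewer cells of a type and less RNA per cell cannot be told apart. When library sizes were replaced by the summed counts of the epithelial list, the log2 fold change in control mice was 0.38 for Btnl1 (adjusted p 0.0608, edgeR), -1.14 for Btnl2 (adjusted p 9.48e-04, edgeR), 1.14 for Btnl4 (adjusted p 4.46e-05, edgeR) and 0.11 for Btnl6 (adjusted p 0.469, edgeR). Relative to epithelial transcripts, then, Btnl2 was still lower in colon, Btnl4 and Btnl1 were higher and Btnl6 did not pass the test. In Slc39a8-IEC KO mice the corresponding values were 0.43 (adjusted p 0.0346), -1.31 (adjusted p 3.15e-04), 0.96 (adjusted p 1.07e-04) and 0.02 (adjusted p 0.911) in edgeR. That scaling moved the median of all tested genes by 1.0, and the share of calls that were higher in colon from 45.3% to 93.0%. Relative to the median gene the 4 values were -0.62, -2.14, 0.14 and -0.89, against -0.62, -2.14, 0.13 and -0.89 under TMM.

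**Figure D3:**
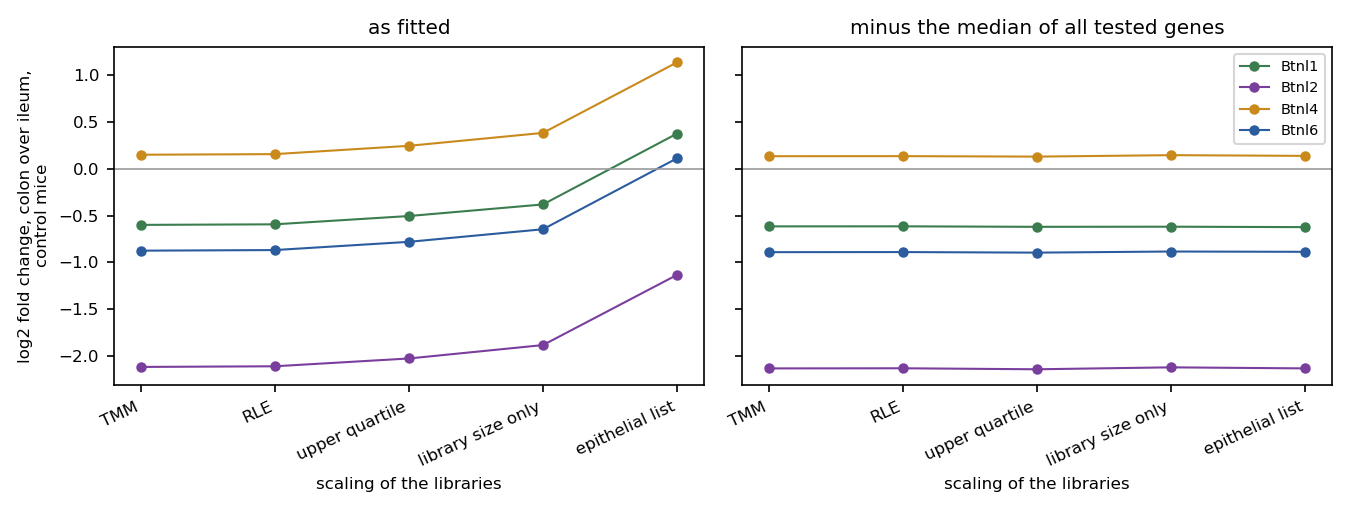
Log2 fold change of colon over ileum in control mice (vertical axis) under 5 scalings of the libraries, as fitted on the left and after subtracting the median of all tested genes on the right. The 4 genes keep their order and spacing, and on the left Btnl1 and Btnl6 cross 0 when libraries are scaled to the epithelial list.

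In counts per 1000 counts of the epithelial list, Btnl4 stood at 3.12 ± 0.365 in the 6 ileal libraries of both genotypes and 6.47 ± 0.504 in the 6 colonic libraries (SD). Btnl1 stood at 6.84 ± 0.681 and 9.04 ± 1.36, and Btnl6 at 15.5 ± 1.27 and 16.3 ± 1.42. Btnl2 stood at 3.04 ± 0.419 in ileum and 1.3 ± 0.273 in colon. The ranges of Btnl4 and Btnl2 did not overlap between the tissues, and those of Btnl6 and Btnl1 did.

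The proportions of the 4 genes within a library do not depend on the scaling, and they differed between the tissues. Of the summed CPM per kb of the 4 genes, Btnl6 made up 65.8% ± 2.02 in the 6 ileal libraries and 60.7% ± 2.11 in the 6 colonic libraries (SD). Btnl1 made up 15.8% ± 2.07 and 18.3% ± 2.39, a small difference with overlapping ranges. The share of Btnl4 was 9.70% ± 0.696 in ileum and 17.8% ± 0.899 in colon, and that of Btnl2 was 8.68% ± 0.859 in ileum and 3.27% ± 0.636 in colon. By the union of annotated exons, Btnl4 and Btnl2 thus had shares with overlapping ranges in ileum and widely separate ones in colon. The overlap in ileum depends on that choice of length, and so does the size of every share, also that of Btnl6. The annotated coding transcripts of Btnl6 (1620 bases, 1617 coding) and Btnl4 (1761, 1758 coding) held almost no untranslated bases. Those of Btnl1 (2113, 1527 coding) and Btnl2 (2566, 1542 coding) did. Fold differences of a ratio between tissues do not depend on the lengths.

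**Figure D4:**
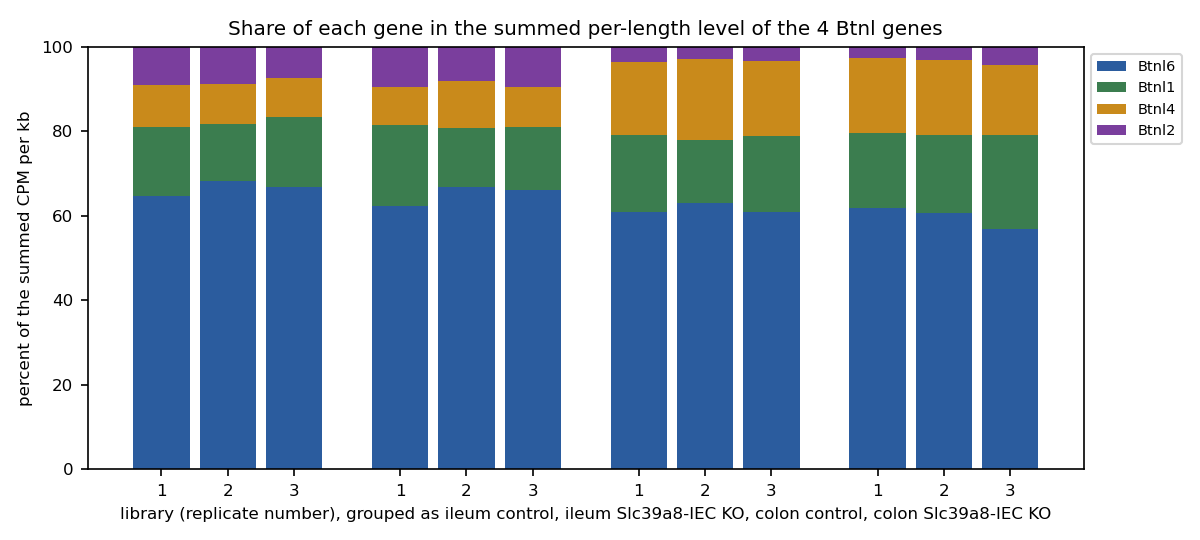
Share of each gene in the summed CPM per kb of the 4 genes (vertical axis, percent) in each library, with libraries grouped by tissue and genotype. The Btnl4 segment spans 8.89% to 10.9% in ileum and 16.6% to 19.3% in colon, and the Btnl2 segment 7.24% to 9.50% and 2.53% to 4.31%.

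The 6 ratios between pairs of the 4 genes were compared between tissues within genotype and between genotypes within tissue, 12 tests in all, by the two-sided exact permutation test on log2 ratios with Benjamini-Hochberg adjustment over the 12. The ratio of Btnl4 to Btnl6 was 0.147 ± 0.00954 in ileum and 0.293 ± 0.00735 in colon (SD, 6 libraries each), a 1.99-fold difference with a permutation p of 0.005 (adjusted p 0.015). This ratio was nearly constant inside each tissue, from 0.138 to 0.164 in ileum and from 0.283 to 0.305 in colon. The ratio of Btnl1 to Btnl2 was 1.83 ± 0.286 in ileum and 5.67 ± 0.75 in colon, a 3.10-fold difference (permutation p 0.005, adjusted p 0.015). Btnl2 was 4.92-fold lower relative to Btnl4 and 2.47-fold lower relative to Btnl6 in colon (permutation p 0.005 and adjusted p 0.015 for both). Btnl1 was 1.58-fold lower relative to Btnl4 (permutation p 0.01, adjusted p 0.024). The ratio of Btnl1 to Btnl6, the known partners, moved least, from 0.241 ± 0.0390 in ileum to 0.303 ± 0.0510 in colon, with overlapping ranges (permutation p 0.045, adjusted p 0.09). Without both libraries low in muscle transcripts the ratio of Btnl4 to Btnl6 in ileum was 0.138 to 0.164 in 4 libraries, and that of Btnl1 to Btnl2 was 1.55 to 1.81.

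The second comparison asked whether the loss of Slc39a8 in intestinal epithelium goes with a change of these genes. None of the 4 genes passed the test in ileum, in colon or over both tissues, by edgeR (0 of 4 also at an unadjusted p below 0.05), by DESeq2 or by limma-voom, and their groups overlapped in both tissues. The background was the same, since edgeR called 0.0% of all tested genes in each of these comparisons at an adjusted p below 0.1, and 252, 385 and 642 of 16558 genes in ileum, colon and both tissues (1.52%, 2.33% and 3.88%) had an unadjusted p below 0.05. Groups that did not overlap were found for 3.7% of all genes in ileum and 12.8% in colon, and for 0 of the 4 genes in either. Over both tissues DESeq2 called 4 genes and limma-voom 1 gene. The targeted gene Slc39a8 itself did not pass in edgeR (log2 fold change -1.13 and adjusted p 0.382 over both tissues). The absence of a call among the 4 genes therefore does not show the absence of a change. The measured values bound the size of a change. Over both tissues the 95% interval ran from -6.74% to 32.0% for Btnl1, from -17.6% to 37.2% for Btnl2, from -13.7% to 21.8% for Btnl4 and from -15.6% to 18.8% for Btnl6.

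In ileum the log2 fold changes of Slc39a8-IEC KO over control were 0.19 for Btnl1 (SE 0.17), 0.24 for Btnl2 (SE 0.24), 0.19 for Btnl4 (SE 0.16) and 0.12 for Btnl6 (SE 0.16). In colon they were 0.11, -0.07, -0.12 and -0.11, with SE of 0.17, 0.25, 0.16 and 0.16. Every ileal value was above 0, and every interval spanned 0. Without both libraries low in muscle transcripts the ileal values were 0.08, 0.10, 0.21 and 0.12, and without the library rich in colonocyte transcripts they were 0.26, 0.30, 0.10 and 0.09, in the order Btnl1, Btnl2, Btnl4 and Btnl6. The genotype effect in colon minus that in ileum was -0.08 for Btnl1 and -0.31, -0.31 and -0.23 for Btnl2, Btnl4 and Btnl6, with an adjusted p of 1.0 for each in edgeR, where 0.0% of all genes passed and 1.02% had an unadjusted p below 0.05. The exact permutation p over both tissues, with genotype labels exchanged within tissue, was 0.2, 0.64, 0.78 and 0.96 in the order Btnl1, Btnl2, Btnl4 and Btnl6, and none of the 6 ratios between the genes passed between genotypes (adjusted p 0.454 to 0.71).

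Around the cluster, the tissue difference was not shared by the whole region. Within 100000 bases of the 4 genes there were 29 annotated genes, of which 17 beside the members were tested. Of these 17, 5 were lower in colon of control mice and 0 higher, where 19.6% of all tested genes were lower. The class II genes H2-Aa (log2 fold change -4.13), H2-Eb1 (-3.10) and H2-Ab1 (-3.08), whose products present antigen to CD4 T cells, were lower in colon. Rnf5 beyond Notch4 was lower by a small amount (-0.50). For Notch4 the value was -0.55 (adjusted p 0.19, edgeR). The pseudogene Btnl7-ps differed as much as Btnl2, with 75.5 to 107 CPM in ileum and 12.8 to 24.9 CPM in colon of control mice (log2 fold change -2.37, adjusted p 2.96e-05, edgeR). Btnl5-ps, between Btnl4 and Btnl6, was at 206 to 294 CPM in ileum and 201 to 250.4 CPM in colon of control mice (log2 fold change -0.16, adjusted p 0.578, edgeR), and it passed as lower in colon of Slc39a8-IEC KO mice (-0.55, adjusted p 0.0564, edgeR). Among the 4 butyrophilin-like genes and pseudogenes of the minus strand the log2 fold changes in control mice were thus 0.15, -0.16, -0.88 and -2.37 in the order of position. The low-count pseudogene Gm15331, between Btnl5-ps and Btnl6 on the same strand, stood at -0.46 (adjusted p 0.427, edgeR). Without the libraries low in muscle transcripts 6 of the 17 other genes were lower in colon of control mice and 8 in Slc39a8-IEC KO mice, and without the library rich in colonocyte transcripts Btnl5-ps did not pass in Slc39a8-IEC KO mice (-0.47, adjusted p 0.152, edgeR).

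**Figure D5:**
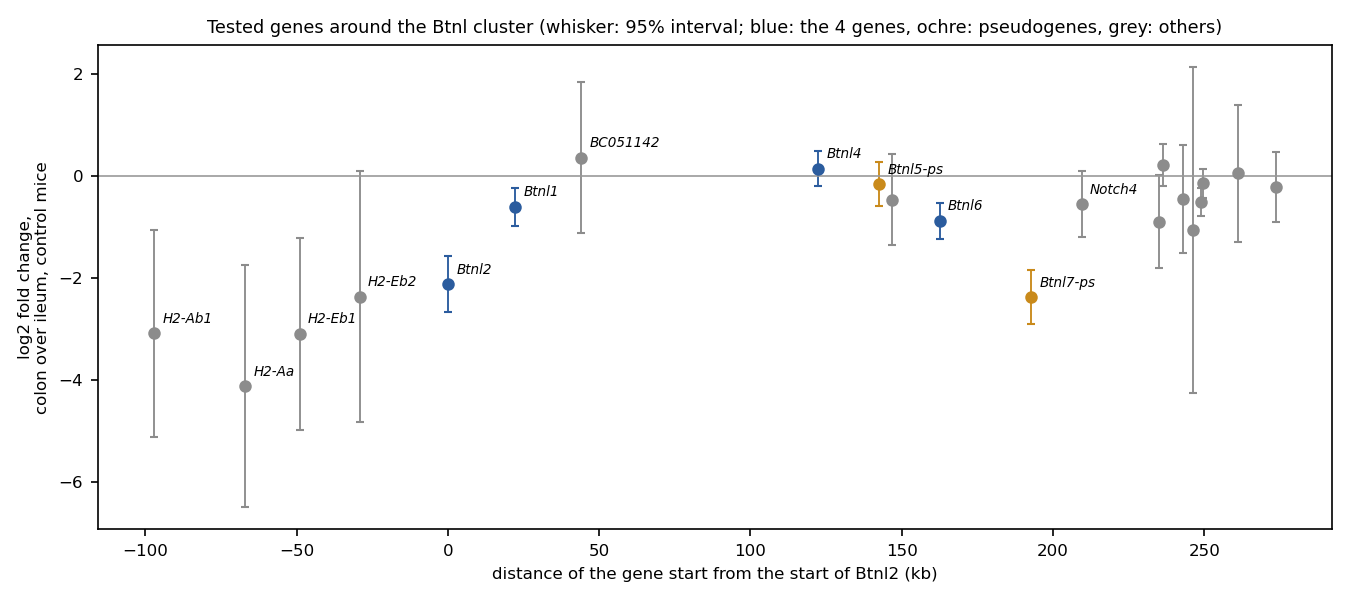
Log2 fold change of colon over ileum in control mice (vertical axis, with 95% interval) of tested genes against the distance of each gene start from that of Btnl2 (horizontal axis, kb). Btnl2 and Btnl7-ps, 193 kb apart, lie near -2, and Btnl4 and Btnl5-ps lie near 0.

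Of the wider butyrophilin family, 19 of 20 listed genes were in the table and 4 were tested. Besides the pseudogenes, Btnl9 and Btn1a1 were tested, and both had fewer than 1 CPM in every group. Their log2 fold changes of 1.72 and 1.24 in control mice did not pass (adjusted p 0.122 and 0.189, edgeR). The list therefore held 0 genes higher and 1 lower in colon of control mice, and 0 higher and 2 lower in Slc39a8-IEC KO mice. Without the libraries low in muscle transcripts Btnl9 passed as higher in control mice (2.43, adjusted p 0.0741, edgeR). The Skint genes, relatives known from skin, did not reach the filter.

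The Btnl1 and Btnl6 pair acts on gamma delta T cells, and a list of genes of gamma delta and natural intraepithelial T cells was lower in colon on the TMM scale. Most of the list is shared with other T cells, and the granzyme genes Gzma and Gzmb, at 138 and 56.0 CPM in control ileum, made up most of its sum. Of 14 listed genes of gamma delta and natural intraepithelial T cells, 12 were tested, of which 10 were lower in colon and 0 higher in control mice, with a median log2 fold change of -1.78 against 0.02 over all tested genes. Of all tested genes 19.6% were lower in colon of control mice. In Slc39a8-IEC KO mice 10 of the listed genes were lower, where 20% of all tested genes were lower, and the median of the list was -1.62. The same shares of all genes apply to the counts of receptor and alpha beta T cell genes with all libraries. Without the libraries low in muscle transcripts all 12 were lower in both genotypes, with medians of -2.18 and -1.91, and without the library rich in colonocyte transcripts 9 and 7 were. The shares of all tested genes lower in colon in these smaller fits are not given. The constant region genes of the gamma delta receptor that were tested are Trdc, Tcrg-C1, Tcrg-C2 and Tcrg-C4, of which 3 passed as lower in control mice and 4 in Slc39a8-IEC KO mice. Without the library rich in colonocyte transcripts 2 and 1 of these 4 passed, and without the libraries low in muscle transcripts all 4 did in both genotypes. The constant region gene Trdc fell by 2.19 (adjusted p 0.0117, edgeR), Tcrg-C1 by 1.38 (adjusted p 0.0981, edgeR) and the granzyme gene Gzma by 2.71 (adjusted p 0.0274, edgeR) in control mice on the log2 scale. The summed level of the list was 66.1 to 382 CPM in control ileum, 93.0 to 400.2 CPM in Slc39a8-IEC KO ileum, 27.9 to 68.9 CPM in control colon and 33.8 to 69.1 CPM in Slc39a8-IEC KO colon. The variable gene Tcrg-V7 of the V gamma 7 chain had at most 21 counts in any library and did not pass the filter. T cell genes as such were also lower in colon, with 6 of 8 alpha beta T cell genes called in control mice (median -1.91) and 4 of 8 in Slc39a8-IEC KO mice (median -1.38), or 8 and 7 of 8 without the libraries low in muscle transcripts and 5 and 3 without the library rich in colonocyte transcripts, and the general leukocyte gene Ptprc differed by -1.39. Their part in the values of the Btnl genes was not tested. In genotype comparisons 0 of the 12 gamma delta list genes passed.

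Btnl levels can be set beside T cell transcripts in the ileal libraries, which also differ in transcripts of other cell types. In both libraries with few gamma delta list transcripts Btnl6 was at 299.8 and 318 CPM against 347 to 431 CPM in the other 4 ileal libraries, and Btnl4 was at 57.4 and 61.6 CPM against 72.0 to 87.4 CPM. Btnl1 was at 138 and 181 CPM in these libraries, below and above the 149 to 178 CPM of the others. Btnl2 was at 48.1 and 71.5 CPM against 70.5 to 90.4 CPM, so that 1 of the 2 libraries lay within the range of the others. The same libraries were also low in smooth muscle transcripts and in the B and plasma cell list. That list summed to 133 and 127 CPM in them, against 438 to 815 CPM in the other 4 ileal libraries. Ptprc was at 34.1 and 34.8 CPM against 35.2 to 45.8 CPM. T cell transcripts thus cannot be set apart from those of other cells here, and their part in the Btnl values was not tested.

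Other epithelial signals to intraepithelial T cells did not share one direction. Ccl25, the chemokine of the small intestine that draws CCR9-bearing T cells, was at 725 ± 300.2 CPM in control ileum and 12.4 ± 1.15 CPM in control colon (SD, n = 3, log2 fold change -5.88, adjusted p 5.27e-07, edgeR). Il15, a survival factor of these cells, rose in colon by 1.09 (adjusted p 0.0279, edgeR) on the log2 scale. H2-T3, which encodes the TL antigen bound by CD8 alpha homodimers, stood at -0.17 on that scale (adjusted p 0.347, edgeR). Il15ra and Il7 did not pass either, so that of the 5 listed genes 1 rose and 1 fell in control mice, also without the libraries low in muscle transcripts.

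Of 4 enterocyte transcription factor genes, 2 were lower and 1 was higher in colon in each genotype with TMM scaling. Values scaled to epithelial transcripts are not given for these genes. Of all tested genes 35.9% changed in either direction in control mice and 37.1% in Slc39a8-IEC KO mice. Hnf4g was at 298, 171 and 203 CPM in control ileum and 20.3, 31.4 and 43.4 CPM in control colon (log2 fold change -2.82, adjusted p 2.65e-05, edgeR). Hnf4a was at 1044, 1322 and 908 CPM in control ileum and 625, 604 and 709.8 CPM in control colon (-0.76, adjusted p 0.00703, edgeR). The values of Hnf4a, -0.76 in control and -0.81 in Slc39a8-IEC KO mice, were smaller decreases than the epithelial list medians of -1.03 and -0.96. A decrease of Hnf4a relative to epithelial transcripts is therefore not shown, whereas Hnf4g fell by more than these medians. Cdx1 was higher in colon by 0.59 (adjusted p 0.0683, edgeR) and the value for Cdx2 was 0.15 (adjusted p 0.701, edgeR). The counts were the same without the libraries low in muscle transcripts, and without the library rich in colonocyte transcripts Cdx1 did not pass in Slc39a8-IEC KO mice (0.57, adjusted p 0.136, edgeR).

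Likeness of expression was described by Pearson's r of log2 CPM over the 12 libraries, which share tissue, genotype and preparation, so that no p is given. Over all libraries Btnl2 and Btnl6 had an r of 0.97 and Btnl1 and Btnl2 one of 0.93, while Btnl4 had an r of 0.10 with Btnl1 and 0.11 with Btnl2. After the mean of each tissue was subtracted, the values were different. Btnl4 and Btnl6 then had an r of 0.94, and both had an r of 0.95 and 0.93 with Btnl5-ps, whereas Btnl1 and Btnl2 had an r of 0.79 with each other and Btnl1 one of 0.23 with Btnl4 and 0.34 with Btnl6. Btnl2 had higher values with genes of the minus strand, at 0.52 with Btnl4, 0.59 with Btnl6 and 0.68 with Btnl7-ps. Inside a tissue, Btnl1 was thus more like its neighbour Btnl2 than like Btnl4 or Btnl6. The epithelial gene Vil1 was as like Btnl1 (r 0.79) and more like Btnl2 (r 0.93), so this likeness was not particular to the neighbours. Without both ileal libraries low in muscle transcripts the values were 0.88 for Btnl4 and Btnl6, 0.84 for Btnl1 and Btnl2, 0.28 for Btnl1 and Btnl4 and 0.42 for Btnl1 and Btnl6 over 10 libraries. Btnl2 then had an r of 0.24 with Btnl4 and 0.42 with Btnl6. Btnl7-ps had one of 0.62 with Btnl1, 0.64 with Btnl2, 0.56 with Btnl4, 0.61 with Btnl5-ps and 0.73 with Btnl6, so likeness did not follow the strands throughout. Reads shared between Btnl4, Btnl6 and Btnl5-ps were not separated here, and their part in this likeness was not tested.

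Among all other tested genes, those most like Btnl2 over the 12 libraries were Net1 (r 0.995), Optn (r 0.99) and Naip5 (r 0.99). Those most like Btnl6 were Me2 (r 0.99), Gdpd1 and Npl (r 0.98 for both), and those most like Btnl1 were Ralb, Tnfsf10 and Sppl3 (r 0.95 for each). For Btnl4 they were Mrpl9 (r 0.94), Tcf25 (r 0.92) and Klrb1c (r 0.91). With tissue means subtracted, Btnl1 was most like Alpi (r 0.86), the intestinal alkaline phosphatase of enterocytes, Ubap1 (r 0.85) and Tnfsf10 (r 0.84), and Btnl2 was most like Ccl5 (r 0.94), Net1 and Gm5431 (r 0.93 for both). Btnl4 was then most like Coro1b (r 0.96), Btnl5-ps (r 0.95) and Mrpl9 (r 0.94), and Btnl6 most like Mefv, Mrpl9 and Serhl (r 0.94 for each). These were the highest of 16557 genes compared for each member.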

How the data were processed

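RNA from ileal or colonic mucosa had been reverse transcribed with an oligo-dT primer and made into libraries with the NEBNext Ultra II kit, sequenced as paired ends, and aligned with STAR to mm10 per the labels. The authors deposited expected counts per gene, and no source read here names the tool that made this table. The study's reporting summary lists unique mapping, duplicate removal and featureCounts, which gives whole counts. Of the deposited expected counts 93.7% were whole numbers, and all were rounded before testing. A table of 53715 genes was read, of which 53620 matched GENCODE M21 by identifier without version, and 92 spike-in rows held 0 counts. The 12 libraries held 16749138 to 27903083 expected counts, and counting error was not compared with the spread between 3 libraries.

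Genes were filtered with filterByExpr, leaving 16558, scaled by TMM and fitted in edgeR 4.0.16 (R 4.3.3) with glmQLFit and glmQLFTest over the 4 groups, or over tissue plus genotype for the genotype effect over both tissues. A gene passed at a Benjamini-Hochberg adjusted p below 0.1, the study's threshold, over all tested genes. SE is the absolute log2 fold change divided by the root of F. CPM per kb used the union of annotated exons. Log2 CPM for likeness used a prior count of 2, and permutation tests a pseudocount of 0.5 CPM. The edgeR step was tested on simulated data. DESeq2 1.42.0, limma-voom (limma 3.58.1), other scalings, filters, a replicate block and fits without single libraries were alternatives.

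The genes described are the members, Slc39a8, listed genes, genes within 100000 bases and the 3 genes most like each member. The members and lists were chosen with earlier results of these data known. Libraries come from separate mice within a group per the study's methods. Replicate numbers were not treated as pairs, since the labels do not tie them to animals.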

Additional observations from a re-analysis of the deposited data

How the results depend on the processing

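Of 640 values of the 4 genes under the alternatives, 590 kept their direction and their side of the threshold, 43 changed sign, 5 newly passed and 2 no longer passed. In control mice 3 genes passed between the tissues under all 27 alternatives, but 2 scalings changed which ones. With epithelial transcripts Btnl4 passed in place of Btnl6 and Btnl1 passed in the other direction, and with library size only Btnl4 passed (0.38) in place of Btnl1 (-0.38). In Slc39a8-IEC KO mice 3 to 4 genes passed, and 0 passed between genotypes in every alternative. Scaling to epithelial transcripts gave log2 fold changes of colon over ileum of 0.38 for Btnl1 and 0.11 for Btnl6 in control mice and of 0.43, 0.96 and 0.017 for Btnl1, Btnl4 and Btnl6 in Slc39a8-IEC KO mice, and it raised the genes called between tissues from 5940 and 6149 to 12590 and 13297. It also gave 0.051 for the Btnl1 difference of genotype effects and -0.0092 and -0.042 for Btnl4 and Btnl6 between genotypes over both tissues. With library size only, Btnl4 was at 0.12 between tissues in Slc39a8-IEC KO mice and Btnl2 was at 0.050 between genotypes in colon. Between genotypes over both tissues Btnl6 was at -0.011 with upper-quartile factors and with at least 50 counts in 3 libraries, and at -0.013 without both ileal libraries low in muscle transcripts, where the Btnl1 difference of genotype effects was 0.040. The cause of these changes was not tested.

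Leaving out 1 library at a time, the values between genotypes over both tissues ran from -0.054 to 0.044 for Btnl6, -0.0060 to 0.17 for Btnl2 and -0.026 to 0.083 for Btnl4. In ileum they ran from 0.13 to 0.26 for Btnl1, 0.058 to 0.38 for Btnl2, 0.073 to 0.31 for Btnl4 and 0.013 to 0.23 for Btnl6, with the lowest value of Btnl2, Btnl4 and Btnl6 without control replicate 3 of the ileum. In colon they ran from -0.26 to 0.086 for Btnl2 and -0.075 to 0.23 for Btnl1, and the Btnl1 difference of genotype effects from -0.26 to 0.040. Between tissues in control mice they ran from -0.72 to -0.43 for Btnl1, -2.31 to -1.94 for Btnl2, 0.02 to 0.23 for Btnl4 and -0.99 to -0.76 for Btnl6.

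Alternatives chosen after seeing the data left out both libraries low in muscle transcripts, for gene lists also ileum Slc39a8-IEC KO replicate 2. With epithelial scaling the values between tissues were then 0.35 for Btnl1 and 0.040 for Btnl6 in control mice and 0.53 for Btnl1 and 0.86 for Btnl4 in Slc39a8-IEC KO mice. Between genotypes they were -0.045, -0.026 and -0.0029 for Btnl1, Btnl2 and Btnl6 in ileum and -0.036, -0.021 and -0.055 for Btnl2, Btnl4 and Btnl6 over both tissues, with 0.18 for the Btnl1 difference of genotype effects. With DESeq2 the Btnl1 difference was 0.0071, and Btnl6 was at -0.015 over both tissues. DESeq2 then called 161 genes between genotypes over both tissues, 0 of them among the 4, against 4 genes with all libraries, 1 by limma-voom and 0 by edgeR.

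The replicate numbers were not taken to pair the libraries, because the labels do not tie them to animals. Correlations between same-numbered libraries, of deviations from group means, do not decide whether they share an animal. Between tissues of 1 genotype these correlations were -0.080 to 0.25, with 3 of 6 over 0.1 and a median of 0.11, against a median of -0.043 and 1 of 12 for different numbers. Between genotypes of 1 tissue they were -0.69 to 0.40. With the replicate block the values of colon over ileum were -0.62, -2.14, 0.16 and -0.87 in control mice and -0.68, -2.44, -0.16 and -1.10 in Slc39a8-IEC KO mice for Btnl1, Btnl2, Btnl4 and Btnl6, and it changed no call of the 4 genes. The block joined libraries of 1 number across genotypes, so it does not model ileum and colon of 1 animal. With 3 libraries per group, differences between genotypes inside the printed intervals remain compatible with these data.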
